A study of Mus musculus with 12 samples.

Results

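The transforming growth factor-β (TGF-β) ligands Tgfb1, Tgfb2 and Tgfb3, the receptors Tgfbr1, Tgfbr2 and Tgfbr3 and the latent TGF-β binding proteins Ltbp1 and Ltbp3 were followed across the cells of the mouse lung. These 8 genes were taken by symbol from the 31053 genes listed in the count matrices, and each symbol matched 1 row. Single-nucleus RNA sequencing had been run on frozen lungs of 12 wild-type C57BL/6J mice, 1 library for each mouse, in 4 groups of 3. The question was how blocking the receptor tyrosine kinase EphB4 alters gene expression in a lung injured by bleomycin, a drug that leads to fibrosis when it is put into the airway. PBS_Vehicle and PBS_NVP-BHG712 mice received PBS into the trachea, and Bleo_Vehicle and Bleo_NVP-BHG712 mice received bleomycin sulphate, at 7 weeks of age. From day 5, NVP-BHG712, a small-molecule EphB4 inhibitor, or its vehicle of N-methyl-2-pyrrolidone and polyethylene glycol was given by mouth once a day for 5 days, and lungs were taken on day 14. No group carried a transgene, and every mouse was gavaged, so both PBS groups are uninjured and the vehicle groups are not untreated.

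TGF-β is secreted as a latent complex, in which the mature ligand stays bound to its own propeptide and, through it, to a latent binding protein that anchors the complex in the matrix. Integrins and proteases release the ligand, which binds the type II receptor, and this receptor phosphorylates the type I receptor, which in turn passes the signal to Smad transcription factors. In the injured lung the pathway is best known for turning fibroblasts into matrix-producing cells.

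On the mouse genome GRCm38 (mm10) with the GENCODE M21 annotation, all members are protein-coding genes. The ligand genes lie at chr7:25687002-25705077 (Tgfb1, plus strand), chr1:186622792-186705989 (Tgfb2, minus strand) and chr12:86056745-86079041 (Tgfb3, minus strand). The receptor genes lie at chr4:47353222-47414931 (Tgfbr1, plus strand), chr9:116084293-116175360 (Tgfbr2, minus strand) and chr5:107106570-107289629 (Tgfbr3, minus strand), and the binding protein genes at chr17:75005568-75392512 (Ltbp1) and chr19:5740904-5758532 (Ltbp3), both on the plus strand. In nuclei much of the RNA is unspliced and a gene's count depends on its length and introns, so levels were compared between cells and mice for 1 gene at a time and never between genes.

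After filtering, 44611 nuclei were used, with 3521537 to 46457084 unique molecular identifiers (UMIs, each 1 captured RNA molecule) per library. Clusters of nuclei were named from marker genes, which gave 18 cell classes, each to be read as resembling that cell type, and 1487 nuclei stayed unnamed. The names were rebuilt here and may differ from those of the study. Up to 34 barcodes were shared by any pair of libraries, of 49163 in all. The 3 Bleo_Vehicle libraries stood apart in having a median mitochondrial share per barcode of 2.56%, 1.32% and 0.668%, against at most 0.0496% in the other 9, and Bleo_Vehicle 3 was the deepest library. The labels give run numbers 1 to 3 to the PBS mice, run number 4 to the Bleo_NVP-BHG712 mice and batch numbers 6 and 7 to the Bleo_Vehicle mice, so in every comparison with a bleomycin group the run and the treatment cannot be told apart. The 12 libraries are separate mice, and p-values measure the spread between them.

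The ligands differed in where they were found. Tgfb1, the ligand most often studied in fibrosis, was highest in immune nuclei, Tgfb2 in smooth muscle and mesothelium, and Tgfb3, the sparsest member, in lymphatic endothelium, mesothelium and muscle. Levels here are counts per 1e6 UMIs (CPM) of a class in a library, averaged over the libraries with at least 20 nuclei of the class, and are a description without a test. The groups behind a mean thus differ between classes. No Bleo_NVP-BHG712 library had 20 nuclei of smooth muscle, lymphatic endothelium or B cells, and no PBS_Vehicle library had 20 of smooth muscle.

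Tgfb1 had 5761 UMIs in all kept nuclei. Its mean level was 139 ± 29.1 CPM (SD, n = 12) in alveolar macrophages, 131 ± 78.1 CPM (SD, n = 8) in dendritic cells, 119 ± 88.9 CPM (SD, n = 6) in B cells and 116 ± 66.9 CPM (SD, n = 11) in interstitial macrophages or monocytes. Alveolar macrophages were above dendritic cells in only 4 of the 8 libraries that held both, so the first 2 places were not separated. The 3 macrophage and dendritic classes held 40.3% of the Tgfb1 UMIs, and the 5 endothelial classes, with means of 52.0 to 88.0 CPM, held 28.6%. Epithelial classes lay at 6.79 to 17.3 CPM and fibroblasts at 18.4 ± 17.1 CPM (SD, n = 12). Such shares of UMIs weight deep libraries more than shallow ones.

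Tgfb2, with 11282 UMIs, reached 676 ± 267 CPM (SD, n = 3) in smooth muscle, which lay above mesothelium (254 ± 93.8 CPM (SD, n = 8)) in each of the 3 libraries that held both, by 389 ± 171 CPM. Lymphatic endothelium (204 ± 142 CPM (SD, n = 7)), alveolar type I nuclei (159 ± 60.2 CPM (SD, n = 12)), venous endothelium (154 ± 76.7 CPM (SD, n = 12)) and pericytes (149 ± 62.6 CPM (SD, n = 8)) followed, and these neighbours did not differ beyond their spread. Because alveolar type I nuclei are abundant, 51.0% of all Tgfb2 UMIs were in them. The level was lowest in interstitial macrophages or monocytes, at 3.66 CPM, a class in which Tgfb1 was among its highest.

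Tgfb3 had 1177 UMIs. Lymphatic endothelium averaged 63.8 ± 96.5 CPM (SD, n = 7), where 1 library, Bleo_Vehicle 1, stood at 278 CPM, and mesothelium and smooth muscle averaged 60.1 ± 54.2 CPM (SD, n = 8) and 59.0 ± 33.5 CPM (SD, n = 3). Their order was not separated. Fibroblasts lay lower, at 18.1 ± 14.4 CPM (SD, n = 12), yet held 44.1% of the UMIs by their number.

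Each receptor had a different leading class. Tgfbr1 encodes the type I receptor kinase and was led by macrophages. Tgfbr2 encodes the type II receptor that binds ligand first and was led by lymphatic endothelium, B cells and fibroblasts. Tgfbr3 encodes betaglycan, a co-receptor that presents ligand, and was led by fibroblasts and other mesenchymal nuclei.

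For Tgfbr1 (40050 UMIs), interstitial macrophages or monocytes averaged 1596 ± 549 CPM (SD, n = 11) and alveolar macrophages 1352 ± 388 CPM (SD, n = 12), a difference within the spread (269 ± 303 CPM, higher in 8 of 11 libraries). Alveolar macrophages were above dendritic cells (562 ± 254 CPM (SD, n = 8)) in 8 of 8 libraries, by 791 ± 482 CPM. Fibroblasts came next at 250.4 ± 41.5 CPM (SD, n = 12), and ciliated nuclei were lowest at 53.0 CPM. The 3 macrophage and dendritic classes held 53.0% of the Tgfbr1 UMIs and fibroblasts 22.7%.

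Tgfbr2 (42238 UMIs) averaged 657 ± 209 CPM (SD, n = 7) in lymphatic endothelium, above B cells (498 ± 142 CPM (SD, n = 6)) in 5 of 6 libraries. B cells, fibroblasts (453 ± 109 CPM (SD, n = 12)) and alveolar macrophages (394 ± 72.9 CPM (SD, n = 12)) were not separated from each other in that order. Fibroblasts held 41.8% of the UMIs and alveolar type I nuclei, at 208 ± 47.2 CPM (SD, n = 12), held 19.1%. Arterial endothelium was lowest, at 64.7 ± 28.8 CPM (SD, n = 10), and Tgfbr2 had the flattest profile of the members, with a fold of 10.2 between its highest and lowest class.

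Tgfbr3 (57181 UMIs) averaged 915 ± 268 CPM (SD, n = 12) in fibroblasts, 641 ± 174 CPM (SD, n = 8) in mesothelium, 487 ± 68.1 CPM (SD, n = 8) in pericytes and 455 ± 96.7 CPM (SD, n = 12) in aerocytes, the capillary cells that line the gas exchange surface. Fibroblasts were above mesothelium in 6 of 8 libraries, and mesothelium was above pericytes in 5 of 5. Fibroblasts held 69.7% of the UMIs. Alveolar type I nuclei were lowest at 8.49 ± 6.72 CPM (SD, n = 12), 108-fold below fibroblasts.

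The latent binding proteins parted between mesenchyme and epithelium. Ltbp1, which tethers latent TGF-β to fibrillin and fibronectin, was a fibroblast gene, and Ltbp3, which also carries latent TGF-β, was highest in alveolar epithelium. Ltbp1 (42413 UMIs) averaged 903 ± 207 CPM (SD, n = 12) in fibroblasts, which exceeded mesothelium (418 ± 162 CPM (SD, n = 8)) in 8 of 8 libraries by 384 ± 195 CPM and held 78.1% of all its UMIs. Venous endothelium (418 ± 328 CPM (SD, n = 12)) and smooth muscle (410.1 ± 162 CPM (SD, n = 3)) were level with mesothelium within the spread. Alveolar type I nuclei were lowest, at 8.83 ± 7.89 CPM (SD, n = 12).

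Ltbp3 (9476 UMIs) averaged 143 ± 48.4 CPM (SD, n = 12) in alveolar type II nuclei and 103 ± 26.3 CPM (SD, n = 12) in alveolar type I nuclei, with the former higher in 11 of 12 libraries by 40.4 ± 39.7 CPM. The 4 epithelial classes held 63.6% of its UMIs. Mesothelium followed at 81.1 ± 27.9 CPM (SD, n = 8) and fibroblasts lay at 50.1 ± 18.6 CPM (SD, n = 12), while alveolar macrophages were lowest at 13.3 CPM. Alveolar type I nuclei thus had a high level of Ltbp3 beside the lowest levels of Ltbp1 and Tgfbr3.

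**Figure D1:**
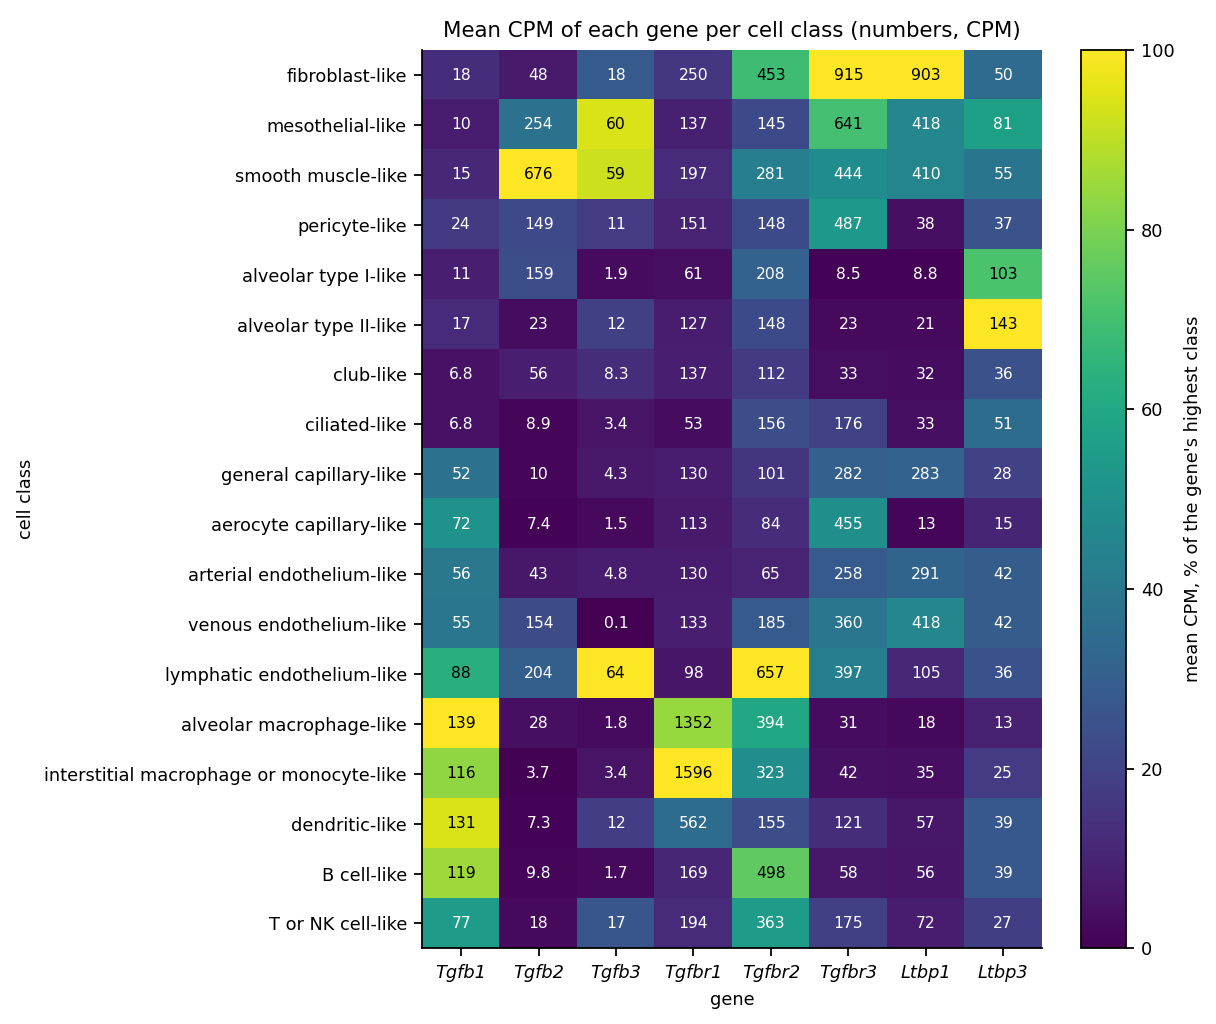
Heat map of the 8 genes (columns) in 18 cell classes (rows), where the number in a cell is the mean CPM over libraries with at least 20 nuclei of the class and the colour is that mean as a percent of the gene's highest class. Fibroblasts are the highest class for Ltbp1 (903 CPM) and Tgfbr3 (915 CPM), macrophages or dendritic cells for Tgfb1 and Tgfbr1, smooth muscle for Tgfb2 and alveolar type II nuclei for Ltbp3.

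Other genes had similar class profiles, ranked by Pearson correlation of mean log2(CPM + 1) across the 18 classes among 12165 genes. For Ltbp1 the 3 closest were Eln (r = 0.914), which encodes elastin, Hmcn1 (0.911) and Slit3 (0.876), and for Tgfbr3 they were Tshz3 (0.953), Il17rd (0.895) and Mpdz (0.881). None of these had fibroblasts as its highest class. Eln and Slit3 were highest in smooth muscle, Hmcn1 in venous endothelium, Tshz3 in lymphatic endothelium, Il17rd in general capillaries and Mpdz in mesothelium. For Tgfbr1 they were Fcgr1 (0.902), the high-affinity IgG receptor of myeloid cells, Hk3 (0.899) and Tifab (0.896), and for Tgfb1 Ptbp3 (0.919), Inpp5d (0.891) and Zc3hav1 (0.878). For Ltbp3 they were Usp54 (0.832), Sdc4 (0.828) and Cobl (0.827). For Tgfb2 they were Adamtsl3 (0.851), Copz2 (0.822) and Ahdc1 (0.820), and for Tgfb3 Sema3d (0.875), Zfhx4 (0.870) and Hhipl1 (0.868). Tgfbr2 had the weakest likeness, with Metap1d (0.770), Mgat4a (0.739) and Kif20b (0.725). The class means share libraries, and the correlations are a description without a test.

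Fibroblasts, the class with the most Ltbp1, Tgfbr2, Tgfbr3 and Tgfb3 UMIs, numbered 9539 nuclei and were clustered again. Subcluster 0 (3650 nuclei) had alveolar, subcluster 2 (1704) adventitial and subcluster 3 (1148) fibrotic fibroblast markers. Subcluster 1 (2508), led by haemoglobin and mitochondrial genes and shallower than the rest, stayed unnamed, as did 3 small subclusters. Subcluster 4 was led in part by the alveolar type I markers Rtkn2 and Lmo7 and subcluster 5 by the general capillary marker Ptprb. Mrc1 and Ptprc were among the leading genes of subcluster 6. In that order they held 5.73%, 5.10% and 5.73% of fibroblasts in Bleo_Vehicle 1 and 5.99%, 3.40% and 1.60% in Bleo_Vehicle 2. No PBS or Bleo_NVP-BHG712 library exceeded 3.79%, 2.57% and 0.920%, and neither did Bleo_Vehicle 3, at 3.01%, 1.53% and 0.613%. The part of these small subclusters in the fibroblast values was not tested. Ltbp1 averaged 1305 ± 392 CPM in the fibrotic-like nuclei, 939.5 ± 219 CPM in the alveolar-like and 766 ± 165 CPM in the adventitial-like. Tgfbr2 ran the same way at the top, with 645 ± 164 CPM in the fibrotic-like and 389 ± 58.9 CPM in the alveolar-like nuclei. Tgfbr3 ran the other way, with 1091 ± 368 CPM in the alveolar-like and 649 ± 229.6 CPM in the fibrotic-like nuclei. Of the 4 large subclusters, the adventitial-like nuclei had the highest Tgfb2 and Tgfb3, at 69.7 ± 26.8 CPM and 42.6 ± 29.1 CPM, against 35.4 ± 23.0 CPM and 7.98 ± 3.00 CPM in the alveolar-like. These are means and SDs over the 11 or 12 libraries with at least 20 nuclei of the subcluster.

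Whole-lung sums, in which the UMIs of all kept nuclei of a mouse are added, asked whether bleomycin or the inhibitor changed a member in the lung as a whole. In such sums fewer cells of a type and less RNA per cell cannot be told apart. Ltbp1 was lower in all Bleo_Vehicle mice than in any other mouse and Tgfb1 was higher in them than in the Bleo_NVP-BHG712 mice, but no member was called. From here, CPM are scaled by the trimmed mean of M-values (TMM), fold changes are log2 with their standard error, and p-values come from edgeR's quasi-likelihood test with Benjamini-Hochberg adjustment over all genes tested in a table. A gene is called where the adjusted p is under 0.05.

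Ltbp1 stood at 251, 404 and 383 CPM in PBS_Vehicle, 258, 458 and 262 in PBS_NVP-BHG712, 213, 199 and 186 in Bleo_Vehicle and 316, 425 and 312 in Bleo_NVP-BHG712. All 3 Bleo_Vehicle mice lay below every mouse of the other groups. The change from PBS_Vehicle to Bleo_Vehicle was -0.79 ± 0.24 (edgeR adjusted p = 0.105) and that from Bleo_Vehicle to Bleo_NVP-BHG712 was 0.82 ± 0.24 (edgeR adjusted p = 0.0671), so neither was called. Both comparisons share the Bleo_Vehicle mice. The difference between the inhibitor's effects under bleomycin and under PBS was 0.90 ± 0.34 (edgeR adjusted p = 0.28). The summed level of 12 fibroblast markers moved alongside, at 2034 to 2079 CPM in Bleo_Vehicle, 2472 to 4663 in PBS_Vehicle and 3784 to 4199 in Bleo_NVP-BHG712. Fibroblasts gave 18.9% to 22.8% of a library's UMIs in Bleo_Vehicle, 24.2% to 33.4% in PBS_Vehicle and 29.2% to 31.6% in Bleo_NVP-BHG712. Their shares of nuclei overlapped, at 16.5% to 25.7%, 17.6% to 27.5% and 21.3% to 27.9% in the same order. The part of the markers and shares in the result was not tested. With DESeq2 and with the replicate number as a block, Ltbp1 was called in both comparisons.

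Tgfb1 stood at 42.4, 24.4 and 26.3 CPM in PBS_Vehicle, 39.1, 25.4 and 29.1 in PBS_NVP-BHG712, 54.7, 36.1 and 33.9 in Bleo_Vehicle and 31.7, 24.6 and 31.1 in Bleo_NVP-BHG712. The Bleo_Vehicle mice were above all Bleo_NVP-BHG712 mice and overlapped PBS_Vehicle, and the change with the inhibitor was -0.50 ± 0.26 (edgeR adjusted p = 0.242). Interstitial macrophage markers moved in the same direction. Among them C1qa, C1qb and C1qc, the chains of a complement component, were called higher in Bleo_Vehicle than in PBS_Vehicle. The full list of 11 summed to 96.8 to 227 CPM in Bleo_Vehicle, 17.2 to 59.0 in PBS_Vehicle and 16.5 to 36.4 in Bleo_NVP-BHG712. Interstitial macrophages or monocytes were 4.09% to 6.36% of nuclei in Bleo_Vehicle, 0.875% to 1.48% in PBS_Vehicle and 1.20% to 1.72% in Bleo_NVP-BHG712. Alveolar macrophages were 7.63% to 18.6%, 4.90% to 8.04% and 6.08% to 7.36% in the same order. The part of the markers and shares in the Tgfb1 values was not tested.

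Tgfb3 reached 35.1, 10.9 and 6.68 CPM in Bleo_Vehicle against 4.60, 3.67 and 13.4 in PBS_Vehicle, where 1 Bleo_Vehicle mouse stood far above the rest and the groups overlapped (log2 change 1.28 ± 0.64, edgeR adjusted p = 0.307). Tgfbr2 stood at 241, 235 and 267 CPM in PBS_Vehicle, 249, 252 and 242 in PBS_NVP-BHG712, 291, 317 and 259 in Bleo_Vehicle and 284, 246 and 266 in Bleo_NVP-BHG712, with overlap in every comparison made and an edgeR adjusted p of 0.309 for bleomycin. Tgfbr1, at 193 to 286 CPM over all 12 mice, and Tgfbr3, at 223 to 443, showed no separation of the groups, and neither did Tgfb2 (42.3 to 129 CPM) or Ltbp3 (49.1 to 108 CPM).

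In all, edgeR called 0 of the 8 members in whole lung for Bleo_Vehicle against PBS_Vehicle, where 2.44% of 14442 genes were called, and 0 of 8 for Bleo_NVP-BHG712 against Bleo_Vehicle, where 5.51% were. At an unadjusted p under 0.05 there was 1 member in each, Ltbp1, against 2684 and 3699 of the 14442 genes. DESeq2 called Ltbp1 in both, and its share of all genes called is not given here. Groups did not overlap for 1 member in the first comparison, against 20.3% of all genes, and for 2 in the second, against 32.9%. Between PBS_NVP-BHG712 and PBS_Vehicle, and between Bleo_NVP-BHG712 and PBS_NVP-BHG712, edgeR and DESeq2 called 0 members and 0 had an unadjusted p under 0.05, with 0.0% of genes called in each. For the interaction, the difference between the inhibitor's effects under bleomycin and under PBS, both tools called 0 members, and edgeR called 0.298% of genes. Ltbp1 alone among the members had an unadjusted p under 0.05, against 2072 of the 14442 genes. In the former pair of comparisons no member was without overlap, against 3.07% and 11.0% of genes. The median log2 change of the members from PBS_Vehicle to Bleo_Vehicle was 0.07, beside 0.01 for all genes.

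**Figure D2:**
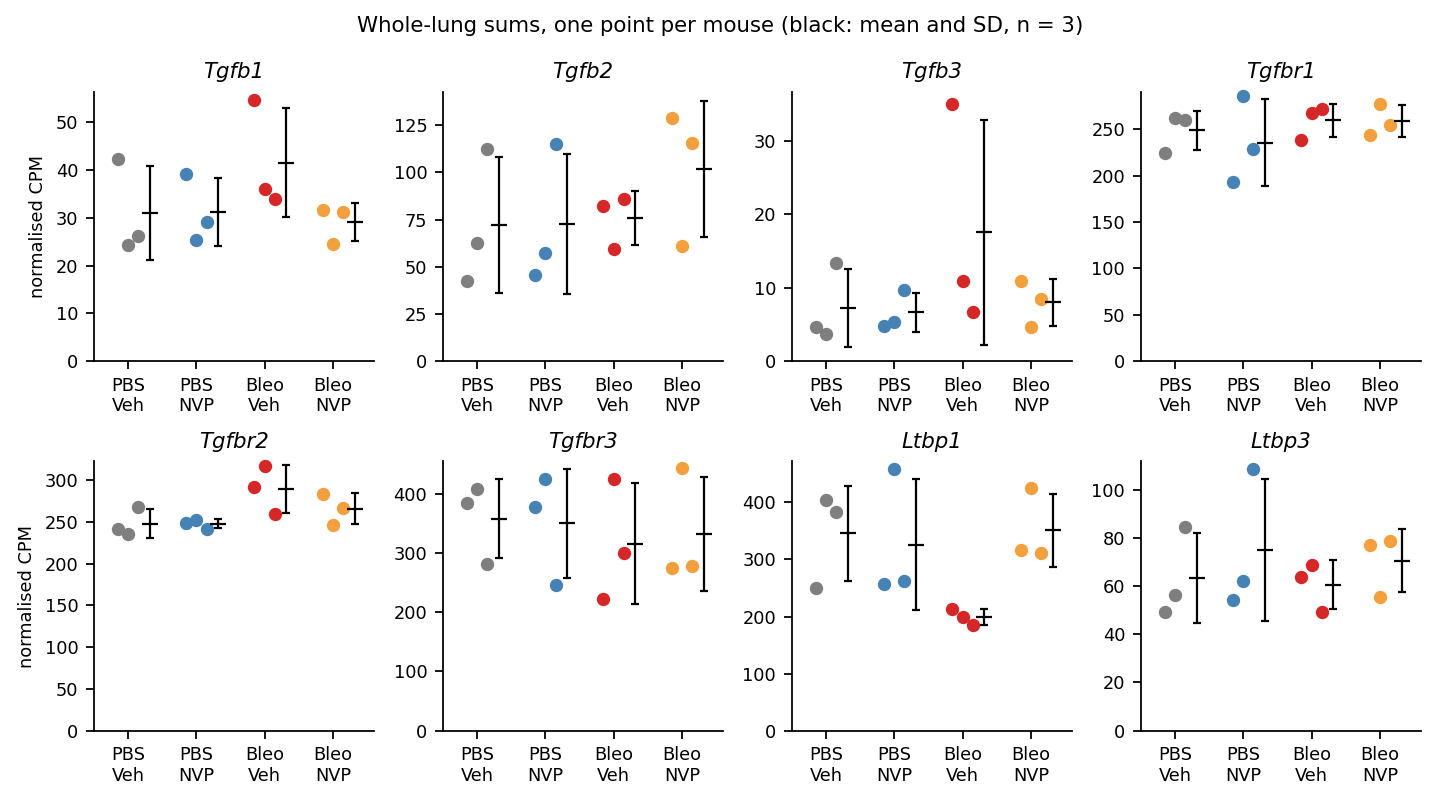
TMM-normalised CPM of each member in whole-lung sums, 1 point per mouse and 1 panel per gene, with the mean and SD of the 3 mice of each group. For Ltbp1 the 3 Bleo_Vehicle mice, at 186 to 213 CPM, sit below all 9 other mice, while the groups overlap for most other members.

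Within fibroblasts, the cells that respond to TGF-β by making matrix, Tgfbr2 was the 1 member with a call. It was highest in the Bleo_Vehicle mice and fell from them to the Bleo_NVP-BHG712 mice. Ltbp1 was lowest in the Bleo_Vehicle mice. Tgfb1 was higher in them than in PBS_Vehicle but overlapped Bleo_NVP-BHG712, and neither gene was called. Tgfbr1 and Tgfbr3 showed no separation.

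Tgfbr2 stood at 400.4, 409 and 407 CPM in PBS_Vehicle, 437, 451 and 346 in PBS_NVP-BHG712, 713, 595 and 503 in Bleo_Vehicle and 414, 416 and 365 in Bleo_NVP-BHG712. The 3 Bleo_Vehicle mice lay above all 9 others, whose values ran together. Tgfbr2 fell from Bleo_Vehicle to Bleo_NVP-BHG712 by a log2 change of -0.60 ± 0.17 (edgeR adjusted p = 0.0483, lower in 3 of 3 mice), and the change from PBS_Vehicle to Bleo_Vehicle was 0.57 ± 0.17 (edgeR adjusted p = 0.0786), short of the threshold. The difference between the inhibitor's effects under bleomycin and PBS was -0.62 ± 0.24 (edgeR adjusted p = 0.28) and was not called. The call was close to its limit and was lost in 14 of 20 alternative settings. Over the 20 the log2 change stayed between -0.70 and -0.44 and the adjusted p between 0.0142 and 0.189, and of the fits with 1 library left out only that without Bleo_Vehicle 3 kept the call. Subcluster 3, fibrotic-like and highest in Tgfbr2, held 30.1%, 16.1% and 15.1% of the fibroblasts in Bleo_Vehicle. It held 7.69%, 5.14% and 7.29% in PBS_Vehicle and 6.75%, 7.21% and 6.44% in Bleo_NVP-BHG712. Alveolar-like subcluster 0 held 3.82%, 21.9% and 37.4% in Bleo_Vehicle, 49.7%, 46.3% and 49.5% in PBS_Vehicle and 41.1%, 49.1% and 46.0% in Bleo_NVP-BHG712. The part of these shares in the change was not tested.

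Ltbp1 stood at 844, 1216 and 1008 CPM in PBS_Vehicle, 871, 1299.7 and 791 in PBS_NVP-BHG712, 756, 536 and 658 in Bleo_Vehicle and 921, 1226 and 852 in Bleo_NVP-BHG712. Each Bleo_Vehicle mouse was below every mouse of the other groups, with a log2 change of -0.66 ± 0.23 from PBS_Vehicle (edgeR adjusted p = 0.147) and 0.62 ± 0.23 to Bleo_NVP-BHG712 (edgeR adjusted p = 0.125). Summed fibroblast markers were also lower in the fibroblasts of Bleo_Vehicle, at 5598 to 8065 CPM, than in those of PBS_Vehicle, at 8338 to 12677, with Itga8 and Npnt called, and their part in the result was not tested.

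Tgfb1 stood at 11.5, 6.95 and 10.2 CPM in PBS_Vehicle, 13.7, 10.6 and 15.4 in PBS_NVP-BHG712, 71.8, 17.2 and 15.6 in Bleo_Vehicle and 23.6, 12.2 and 13.6 in Bleo_NVP-BHG712. Bleo_Vehicle was above PBS_Vehicle without overlap, on 58, 54 and 141 UMIs against 68, 14 and 16, and the log2 change of 1.65 ± 0.52 was not called (edgeR adjusted p = 0.107). Bleo_Vehicle 1 was far the highest of the 12 mice, and the groups overlapped for the inhibitor (log2 change -0.95 ± 0.53, edgeR adjusted p = 0.305). Interstitial macrophage markers in the same fibroblast nuclei summed to 23.3 to 78.0 CPM in Bleo_Vehicle, 1.98 to 6.10 in PBS_Vehicle and 4.39 to 5.14 in Bleo_NVP-BHG712, with 0 of 11 passing the low-count filter, and their part in the Tgfb1 values was not tested.

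Tgfb3 in fibroblasts was 59.4, 14.7 and 12.7 CPM in Bleo_Vehicle against 9.66, 6.45 and 30.1 in PBS_Vehicle, and Ltbp3 was 99.1, 45.0 and 40.9 CPM against 45.1, 29.8 and 48.6. In both genes Bleo_Vehicle 1 alone stood out and the groups overlapped. Tgfb2 ran from 25.1 to 78.1 CPM over the 12 mice, Tgfbr1 from 155 to 306 and Tgfbr3 from 564 to 1157, and in these the groups overlapped throughout. Mice of the same replicate number tended to share a level of Tgfbr3 in the PBS groups, where replicate 3 stood at 635 and 651 CPM and the others at 1091 to 1146.

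In fibroblasts edgeR called 1 of 8 members for Bleo_NVP-BHG712 against Bleo_Vehicle, where 6.88% of 10480 genes were called, and 2 were without overlap (29.5% of genes), Tgfbr2 and Ltbp1. It called 0 of 8 for Bleo_Vehicle against PBS_Vehicle, where 3.64% of genes were called. There 3 members had an unadjusted p under 0.05, against 1829 of the 10480 genes, and the same 3 were without overlap (20.1% of genes). DESeq2 called 2, Tgfb1 and Tgfbr2, and its share of all genes called is not given here. For PBS_NVP-BHG712 against PBS_Vehicle and Bleo_NVP-BHG712 against PBS_NVP-BHG712, edgeR and DESeq2 called 0 members and 0 had an unadjusted p under 0.05, where 0.0% of genes were called and 3.93% and 9.85% were without overlap. For the interaction both tools called 0 members, and edgeR called 0.305% of genes. Tgfbr2 alone among the members had an unadjusted p under 0.05, against 1397 of the 10480 genes. The median log2 change of the members was 0.37 from PBS_Vehicle to Bleo_Vehicle and -0.27 from there to Bleo_NVP-BHG712, beside 0.00 and -0.05 for all genes.

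**Figure D3:**
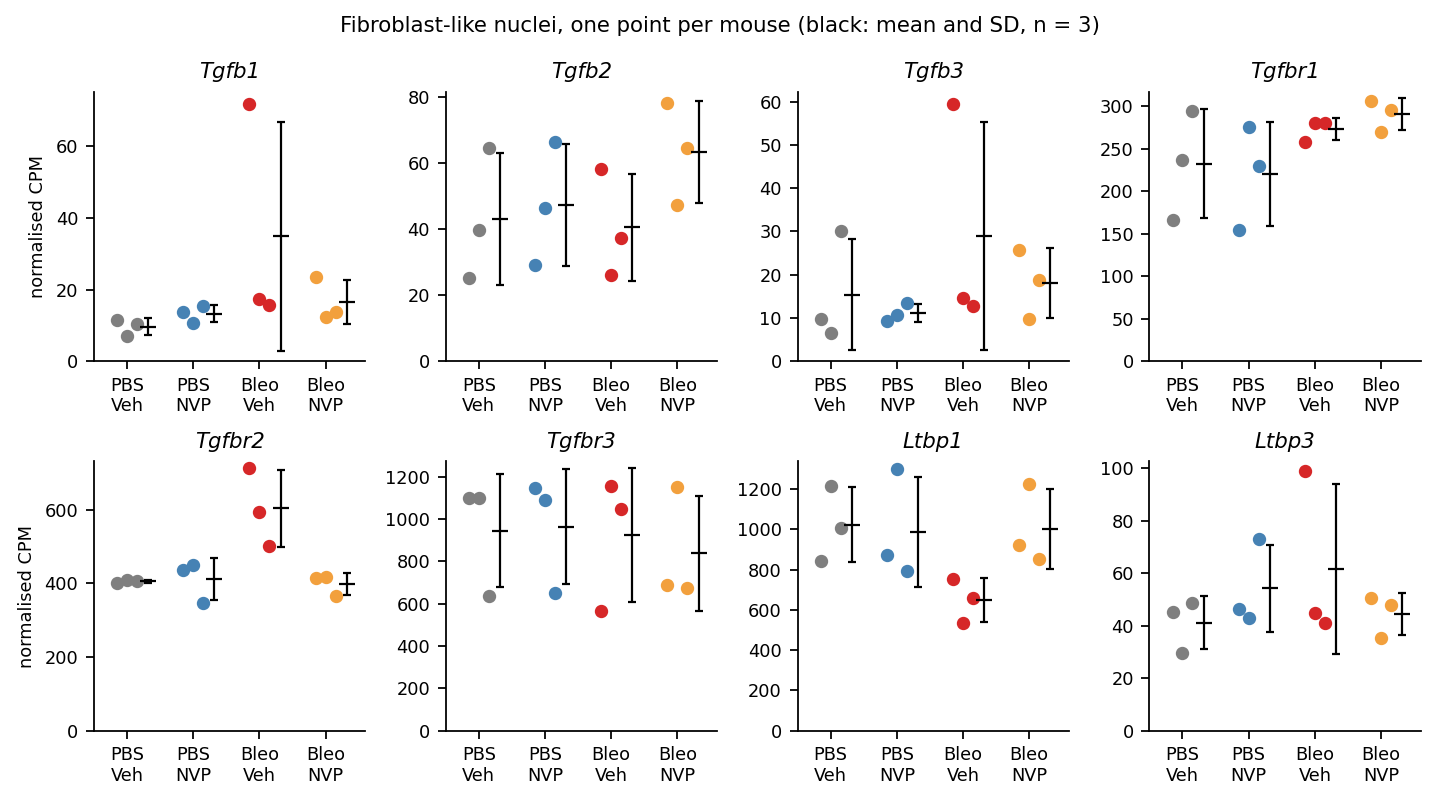
TMM-normalised CPM of each member in fibroblast nuclei, summed per mouse, with 1 point per mouse, 1 panel per gene and the mean and SD of 3 mice per group. Tgfbr2 is highest in the 3 Bleo_Vehicle mice (503 to 713 CPM) and Ltbp1 is lowest in them (536 to 756 CPM), and Tgfb1 and Tgfb3 are drawn up by Bleo_Vehicle 1.

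Tgfbr2 was higher in Bleo_Vehicle than in Bleo_NVP-BHG712 inside each large fibroblast subcluster, given as CPM of the subcluster's own UMIs and without a test. In the fibrotic-like nuclei it was 765, 879.9 and 686 CPM in Bleo_Vehicle, 505, 559 and 512 in Bleo_NVP-BHG712 and 707, 777 and 529 in PBS_Vehicle. In the adventitial-like nuclei it was 888, 649.9 and 539.7 CPM in Bleo_Vehicle, 480.1, 421 and 291 in Bleo_NVP-BHG712 and 583, 435 and 421 in PBS_Vehicle. In both, Bleo_Vehicle was above Bleo_NVP-BHG712 without overlap and overlapped PBS_Vehicle. The alveolar-like nuclei gave 524 and 451 CPM in Bleo_Vehicle, 348, 355 and 348 in Bleo_NVP-BHG712 and 386, 333 and 373 in PBS_Vehicle, where only 2 Bleo_Vehicle mice had 20 nuclei. The unnamed subcluster 1 gave 576, 521 and 613 CPM in Bleo_Vehicle, 493, 500.5 and 394 in Bleo_NVP-BHG712 and 463, 469 and 348 in PBS_Vehicle. In these the Bleo_Vehicle mice lay above both other groups.

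Ltbp1 was lower in Bleo_Vehicle in 3 of the 4 large subclusters. In the fibrotic-like nuclei it was 977, 769.7 and 862 CPM in Bleo_Vehicle, 1475, 1879 and 1049 in Bleo_NVP-BHG712 and 1311, 1712 and 1388 in PBS_Vehicle. The alveolar-like nuclei gave 555 and 687 CPM in Bleo_Vehicle, 902, 1151 and 859.8 in Bleo_NVP-BHG712 and 995, 1169 and 945 in PBS_Vehicle. Subcluster 1 gave 391, 442 and 602 CPM in Bleo_Vehicle, 684, 934 and 872 in Bleo_NVP-BHG712 and 1114, 966 and 1029 in PBS_Vehicle. In each of these Bleo_Vehicle did not overlap any other group. The adventitial-like nuclei overlapped, at 824, 500.3 and 660.5 CPM in Bleo_Vehicle, 576, 1073 and 605 in Bleo_NVP-BHG712 and 773, 921 and 852 in PBS_Vehicle. The fibrotic-like nuclei, with the highest mean Ltbp1, were among the 3 subclusters with lower Ltbp1. The part of the subcluster shares in the fibroblast Ltbp1 values was not tested.

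**Figure D4:**
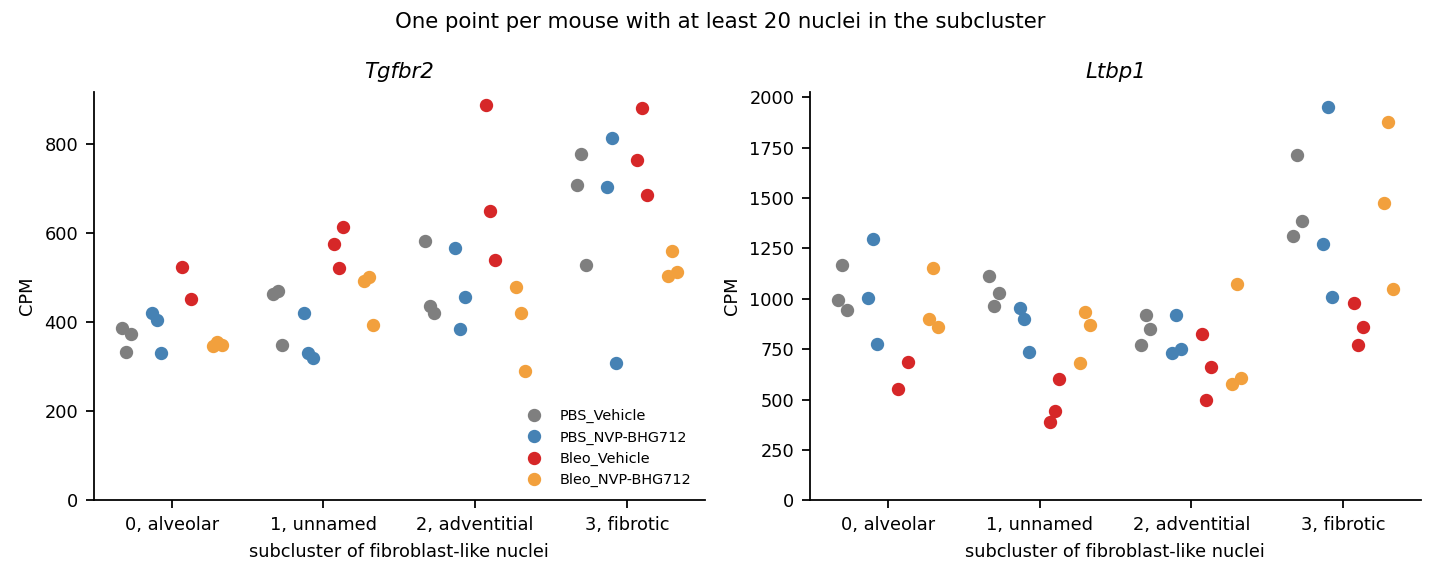
CPM of Tgfbr2 and Ltbp1 in the 4 large fibroblast subclusters, with 1 point per mouse that had at least 20 nuclei, coloured by group. Bleo_Vehicle points lie above Bleo_NVP-BHG712 points for Tgfbr2 in all 4 subclusters and below them for Ltbp1 in subclusters 0, 1 and 3.

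A further 10 classes had enough nuclei to be tested, which gave 53 pairs of member and class. Calls were made in 3 epithelial classes, and all 5 had their highest values in Bleo_Vehicle, for members whose levels in that class were low or whose counts were few. Of the pairs, edgeR called 2 for Bleo_Vehicle against PBS_Vehicle, where 3.02% of all tests in these classes were called, and 3 for Bleo_NVP-BHG712 against Bleo_Vehicle, where 3.54% were. Groups did not overlap in 15 pairs in each comparison, against 19.6% and 24.9% of all tests. For PBS_NVP-BHG712 against PBS_Vehicle and Bleo_NVP-BHG712 against PBS_NVP-BHG712, edgeR and DESeq2 called 0 pairs, with 0 and 1 at an unadjusted p under 0.05, where 0.0% of tests were called. There 2 and 4 pairs were without overlap, against 6.01% and 10.6% of tests. For the interaction edgeR called 0 pairs and DESeq2 1, and edgeR called 0.47% of tests. An unadjusted p under 0.05 was found there for 8 pairs. The shares of all tests in these classes at that limit are not given here.

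Tgfb2 in alveolar type II nuclei stood at 3.92, 2.54 and 17.5 CPM in PBS_Vehicle, 7.91, 4.49 and 7.70 in PBS_NVP-BHG712, 19.5, 77.7 and 35.3 in Bleo_Vehicle and 10.6, 58.9 and 51.0 in Bleo_NVP-BHG712. It rose from PBS_Vehicle to Bleo_Vehicle by 2.95 ± 0.65 (edgeR adjusted p = 0.0142, higher in 3 of 3 mice), on 4, 63 and 175 UMIs against 8, 1 and 6. Bleo_NVP-BHG712 mice overlapped Bleo_Vehicle, and their log2 change from PBS_NVP-BHG712 was 2.52 ± 0.65 (edgeR adjusted p = 1.0). The call was lost without Bleo_Vehicle 2, PBS_Vehicle 1 or PBS_Vehicle 2. Alveolar type I nuclei, the class richest in Tgfb2 UMIs, have markers that were also measured in these nuclei. Of 8 tested, Akap5, Ager and Clic5 were higher in Bleo_Vehicle, and their list summed to 2939 to 3557 CPM there, 1315 to 2063 in PBS_Vehicle, 1585 to 2385 in Bleo_NVP-BHG712 and 1515 to 2054 in PBS_NVP-BHG712, and their part in the result was not tested.

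Club nuclei, the secretory cells of the airway, held calls for the co-receptor and for the type II receptor. Tgfbr3 stood at 26.8, 5.75 and 0 CPM in PBS_Vehicle, 26.4, 16.7 and 13.6 in PBS_NVP-BHG712, 94.4, 149.9 and 39.7 in Bleo_Vehicle and 21.3, 23.2 and 9.11 in Bleo_NVP-BHG712, and rose from PBS_Vehicle to Bleo_Vehicle by 2.68 ± 0.64 (edgeR adjusted p = 0.0378, higher in 3 of 3 mice), on 6, 71 and 64 UMIs against 18, 3 and 0. Tgfbr2 stood at 101, 136 and 92.2 CPM in PBS_Vehicle, 125, 94.1 and 102 in PBS_NVP-BHG712, 173, 175 and 168 in Bleo_Vehicle and 63.8, 99.9 and 86.6 in Bleo_NVP-BHG712, with the 3 Bleo_Vehicle mice close together above all others, and fell with the inhibitor by a log2 change of -0.98 ± 0.25 (edgeR adjusted p = 0.0458, lower in 3 of 3 mice). The Tgfbr2 call was lost in 18 of 20 alternative settings and the Tgfbr3 call in 10. The former did not survive leaving out any 1 library, and the latter was lost without PBS_Vehicle 2 or 3, PBS_NVP-BHG712 2 or 3, Bleo_NVP-BHG712 1 or Bleo_Vehicle 1 or 2. Fibroblast markers other than Npnt, which alveolar epithelium also expresses, summed, without TMM scaling, to 295 to 670 CPM in the club nuclei of Bleo_Vehicle, 139 to 192 in Bleo_NVP-BHG712 and 139 to 696 in PBS_Vehicle. General capillary markers summed to 909 to 1263, 259.7 to 588 and 241 to 449 CPM with TMM scaling in the same order. Aerocyte markers overlapped between the groups, at 249 to 775, 287 to 320 and 229 to 409 CPM without TMM scaling in that order. The part of these lists in the results was not tested.

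Alveolar type I nuclei, where Ltbp1 and Tgfbr3 were at their lowest of all classes, held calls for both. Tgfbr3 stood at 9.75, 7.26 and 2.80 CPM in PBS_Vehicle, 4.66, 5.18 and 3.94 in PBS_NVP-BHG712, 21.8, 23.1 and 11.5 in Bleo_Vehicle and 4.41, 3.20 and 5.74 in Bleo_NVP-BHG712, and fell from Bleo_Vehicle to Bleo_NVP-BHG712 by a log2 change of -2.02 ± 0.45 (edgeR adjusted p = 0.0194, lower in 3 of 3 mice), on 27, 63 and 140 UMIs against 5, 5 and 10. Ltbp1 stood at 9.03, 5.94 and 5.60 CPM in PBS_Vehicle, 5.56, 1.73 and 5.42 in PBS_NVP-BHG712, 32.3, 16.8 and 11.0 in Bleo_Vehicle and 7.05, 2.56 and 4.59 in Bleo_NVP-BHG712, and fell by a log2 change of -2.04 ± 0.52 (edgeR adjusted p = 0.0327, lower in 3 of 3 mice), on 40, 46 and 134 UMIs against 8, 4 and 8. From PBS_Vehicle to Bleo_Vehicle the log2 changes were 1.36 ± 0.40 and 1.40 ± 0.47 (edgeR adjusted p = 0.0667 and 0.0983). With the replicate number as a block these were called. In the comparison of the bleomycin groups both calls were lost without any 1 of the Bleo_NVP-BHG712 libraries or Bleo_Vehicle 2, and that of Ltbp1 also without Bleo_Vehicle 1. In PBS_Vehicle 2 most of the alveolar type I nuclei, 154, sat in a cluster of their own and 66 in the cluster that held this class elsewhere. Tgfbr3 and Ltbp1 had their highest class level in fibroblasts, and fibroblast markers moved with them in these nuclei. Fn1, Col1a1 and Col1a2 were higher and Npnt was lower in Bleo_Vehicle than in PBS_Vehicle, of 8 markers tested. The 12 markers together, of which Npnt took the most, summed to 436 to 506 CPM in Bleo_Vehicle, 737 to 865 in Bleo_NVP-BHG712 and 756 to 851 in PBS_Vehicle. The 11 without Npnt, a sum chosen after its values were seen and given without TMM scaling, came to 110.0 to 150.0 CPM in Bleo_Vehicle, 32.1 to 62.4 in Bleo_NVP-BHG712, 40.5 to 64.5 in PBS_Vehicle and 48.9 to 79.0 in PBS_NVP-BHG712. Their part in the Tgfbr3 and Ltbp1 values was not tested. In fibroblasts themselves Ltbp1 differed in the opposite direction between these groups.

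**Figure D5:**
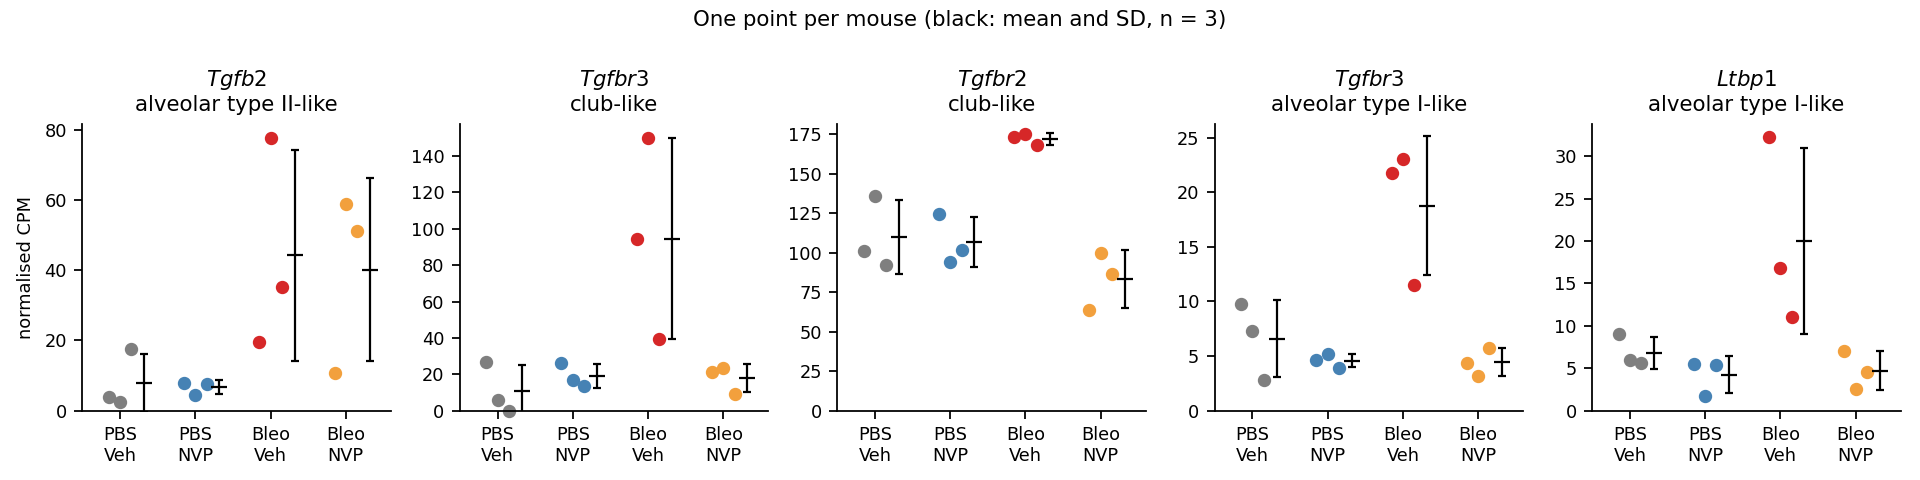
TMM-normalised CPM in the 5 called pairs of member and epithelial class, with 1 point per mouse and the mean and SD of 3 mice per group. In each panel Bleo_Vehicle has the highest mean, and Bleo_NVP-BHG712 overlaps it in Tgfb2 of alveolar type II nuclei only. The Bleo_Vehicle mice lie at 11.0 to 32.3 CPM for Ltbp1 in alveolar type I nuclei and at 168 to 175 CPM for Tgfbr2 in club nuclei.

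Among the pairs short of the threshold, Tgfbr1 in alveolar macrophages, one of its 2 leading classes, stood at 1356, 1879 and 1268 CPM in PBS_Vehicle, 1139, 1839.6 and 1307 in PBS_NVP-BHG712, 755, 960.2 and 1295 in Bleo_Vehicle and 1672, 2076 and 1280.2 in Bleo_NVP-BHG712. The log2 change was -0.58 ± 0.24 from PBS_Vehicle to Bleo_Vehicle (edgeR adjusted p = 0.2) and 0.74 ± 0.24 from there to Bleo_NVP-BHG712 (edgeR adjusted p = 0.1). The Bleo_Vehicle mice overlapped both other groups. In the same nuclei Tgfbr3 and Ltbp1 differed between Bleo_Vehicle and PBS_Vehicle by 2.35 ± 0.67 and 1.85 ± 0.55 (edgeR adjusted p = 0.0534 and 0.0563). Tgfbr2 in ciliated nuclei differed by 1.02 ± 0.26 in that comparison (edgeR adjusted p = 0.0525). In alveolar type I nuclei Tgfbr2 went against its direction in fibroblasts and club nuclei, with 177, 145 and 173 CPM in Bleo_Vehicle and 296, 195 and 269.9 in Bleo_NVP-BHG712, which did not overlap (0.62 ± 0.19, edgeR adjusted p = 0.0627). With the replicate number as a block, the changes of Tgfbr3 and Ltbp1 in alveolar macrophages and of Tgfbr2 in ciliated and alveolar type I nuclei were called, and DESeq2 called those of Tgfbr3 in alveolar macrophages and Tgfbr2 in alveolar type I nuclei.

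Around the members, 58 other genes of the pathway were followed in 5 lists, namely 13 activators or storage partners of the latent complex, 7 other receptors, 7 signal carriers, 11 inhibitors and 20 targets in matrix-producing cells. In whole lung 4 of the 58 rose and 0 fell from PBS_Vehicle to Bleo_Vehicle, 1 an activator or storage partner and 3 targets, where 2.44% of all genes were called. From Bleo_Vehicle to Bleo_NVP-BHG712 0 rose and 9 fell, of which 3 were activators or storage partners, 1 an inhibitor and 5 targets, where 5.51% of all genes were called. Other receptors and signal carriers had 0 calls in both. The median log2 change of the targets was 1.13 in the first comparison and -1.18 in the second, beside 0.01 and -0.05 for all genes.

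Ltbp2, a relative of Ltbp1 and Ltbp3 that does not itself bind latent TGF-β, was called in both comparisons. In fibroblasts it stood at 10.5, 13.9 and 12.8 CPM in PBS_Vehicle, 175, 61.9 and 65.4 in Bleo_Vehicle and 18.5, 15.1 and 11.0 in Bleo_NVP-BHG712, with no Bleo_Vehicle mouse near the others. It rose with bleomycin by 2.98 ± 0.42 (edgeR adjusted p = 0.00259) and fell with the inhibitor by a log2 change of -2.72 ± 0.43 (edgeR adjusted p = 0.00504). Ltbp4, the other relative, which carries latent TGF-β and takes part in elastic fibre assembly, fell in fibroblasts with bleomycin, from 184, 176 and 171 CPM to 39.6, 124 and 93.1 CPM (log2 change -0.99 ± 0.26, edgeR adjusted p = 0.048), a direction it shared with Ltbp1.

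Of the targets, Adam12, a metalloproteinase, stood in fibroblasts at 9.83, 17.9 and 4.48 CPM in PBS_Vehicle, 474, 68.0 and 42.3 in Bleo_Vehicle and 7.19, 21.5 and 7.11 in Bleo_NVP-BHG712, and rose with bleomycin by 4.09 ± 0.90 (edgeR adjusted p = 0.0329) and fell with the inhibitor by a log2 change of -3.85 ± 0.92 (edgeR adjusted p = 0.0324). Eln, which encodes elastin, stood at 738, 502 and 214 CPM in PBS_Vehicle, 2942, 1054 and 1323 in Bleo_Vehicle and 266, 422 and 364 in Bleo_NVP-BHG712 and fell with the inhibitor (log2 change -2.33 ± 0.53, edgeR adjusted p = 0.0271), as did Lox, which crosslinks it (-1.05 ± 0.29, edgeR adjusted p = 0.0445). Counted over the 53 pathway genes that passed the filter in fibroblasts, 2 rose and 1 fell with bleomycin, and 0 rose and 5 fell with the inhibitor. Of all fibroblast genes 3.64% and 6.88% were called in the same comparisons, so these counts of a few genes are not set apart from the general rate.

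In whole lung, Tgfbi, a matrix protein named for its induction by TGF-β, averaged 21.2 ± 1.04 CPM (SD, n = 3) in PBS_Vehicle and stood at 399.6, 80.2 and 32.7 CPM in Bleo_Vehicle, so that Bleo_Vehicle mice were all highest but spread widely. It rose by 2.99 ± 0.67 (edgeR adjusted p = 0.0411) and fell with the inhibitor by a log2 change of -2.97 ± 0.68 (edgeR adjusted p = 0.0288). Ltbp2 and the transcription factor Bhlhe40 rose there with bleomycin as well, by 2.19 ± 0.46 and 1.33 ± 0.30 (edgeR adjusted p = 0.0331 and 0.0439). With the inhibitor Ltbp2 and Eln fell by log2 changes of -2.56 ± 0.49 and -1.79 ± 0.39 (edgeR adjusted p = 0.015 and 0.0238). Tgfbi was also a leading gene of fibroblast subcluster 6, beside Mrc1 and Ptprc. Interstitial macrophages or monocytes were 4.09% to 6.36% of nuclei in Bleo_Vehicle, 0.875% to 1.48% in PBS_Vehicle and 1.20% to 1.72% in Bleo_NVP-BHG712. Their part in the Tgfbi values was not tested.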

How the data were processed

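Nuclei were sorted from frozen lungs, and reads were aligned to mm10 with Cell Ranger (7.2.0 per the file headers, 7.0 per the labels). The authors deposited 1 matrix of raw UMI counts per library, with 49163 barcodes and no normalization. The study's own tools, among them Seurat, DecontX for free RNA and its doublet caller, were not rerun, and counts include free RNA.

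Nuclei with under 200 or over 6000 genes or over 5% mitochondrial UMIs were left out (13, 96 and 1739 barcodes), as were 2708 doublets (5.72%) by scrublet scores in scanpy 1.11.5. Normalised profiles were corrected for library with a Python version of Harmony, clustered by the Leiden method at resolution 1 and named from at least 3 markers. UMIs were summed per mouse and class and tested in 1 fit of all 12 libraries with edgeR 4.0.16 (filterByExpr, TMM, robust quasi-likelihood test, two-sided). Classes needed 20 nuclei in at least 2 libraries of each group. UMI totals limit the precision of low members, and no interval was computed.

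In simulated counts, 39% of 2-fold and 98% of 4-fold changes were recovered in whole lung (14442 genes) and 27% and 96% in fibroblasts (10480 genes), for Bleo_Vehicle against PBS_Vehicle, and false calls were 2.84% and 10.9% of calls. The simulation gave every gene and group the same dispersion. The measured genes and groups need not share one, so these rates may not hold for the tests reported. The members, lists and markers were chosen with earlier results of these data known. The members were named whatever their values. Of the other pathway genes, called genes that average at least 10 CPM were named, up to 4 rises and 4 falls per comparison, and the 3 genes of most similar class profile were named for each member. Some genes that these rules select are not reported here. Names of genes outside these rules were chosen as markers or after their values were seen.

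Replicate numbers in the labels were checked as pairs by correlating deviations from group means. The 3 PBS pairs had r = 0.787, 0.457 and 0.570 in whole lung, while pairs with a bleomycin group ran from -0.157 to 0.333. The numbers thus paired the PBS groups most closely, though 9 of 12 libraries correlated best with a library of their own number. PBS mice of replicate 1 also shared run number 1 and those of replicate 2 run number 2, so pair and run cannot be told apart there. The same comparisons were run with DESeq2 1.42.0, without the low-count filter, with the replicate block, without mitochondrial genes, with only the compared groups, with doublets kept, with stricter nuclei, without batch correction and without each library in turn.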

Additional observations from a re-analysis of the deposited data

How the results depend on the processing

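None of the 6 called member changes turned its direction in any of the 20 alternatives run for it, while the number of calls moved. This does not cover the pathway genes outside the 8 members. In whole lung, Ltbp1 gave 1 call with DESeq2 and with the replicate block in both Bleo_Vehicle against PBS_Vehicle and Bleo_NVP-BHG712 against Bleo_Vehicle, and 1 in the latter with only the groups compared. In fibroblasts, Bleo_Vehicle against PBS_Vehicle gave 2 with DESeq2 and with the block (Tgfb1 and Tgfbr2) and 2 without the low-count filter and without batch correction (Tgfb1 and Ltbp1). Bleo_NVP-BHG712 against Bleo_Vehicle gave 0 with only the groups compared and under stricter limits on nuclei (500 UMIs or more, 1% mitochondrial or less), and 2 without batch correction. In the other classes the 2 calls of Bleo_Vehicle against PBS_Vehicle became 4 with DESeq2, 12 without the filter, 7 with the block, 5 with doublets kept, 1 with stricter nuclei and 1 without batch correction. The 3 of Bleo_NVP-BHG712 against Bleo_Vehicle became 9, 7, 1 and 9 without the filter, with the block, with only the groups compared and with doublets kept. The interaction went from 0 to 1 with DESeq2, 4 without the filter, 2 with the block and 2 with doublets kept, and Bleo_NVP-BHG712 against PBS_NVP-BHG712 from 0 to 1 without the filter. The share of all tests called under each setting is not given here, so these counts cannot be set apart from a general shift in calls. The cause was not tested. The block changed no other count by over 1.5 times, and 9 of 12 libraries correlated best with a library of their own number.

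Leaving out 1 library at a time gave 0 to 2 calls in fibroblasts for Bleo_Vehicle against PBS_Vehicle and 0 to 1 for Bleo_NVP-BHG712 against Bleo_Vehicle, and in the other classes 0 to 15, 0 to 11 and, for the interaction, 0 to 5. The highest of each was without Bleo_Vehicle 3, the deepest library, and only then was Tgfbr2 in fibroblasts still called. In the other classes Bleo_Vehicle against PBS_Vehicle gave 0 without Bleo_Vehicle 2 or PBS_Vehicle 2, 1 without Bleo_Vehicle 1, PBS_Vehicle 1 or PBS_Vehicle 3 and 4 without any 1 PBS_NVP-BHG712 library. Bleo_NVP-BHG712 against Bleo_Vehicle gave 0 without Bleo_NVP-BHG712 1 or 3 or Bleo_Vehicle 2, 1 without Bleo_NVP-BHG712 2 or Bleo_Vehicle 1, and 2 without PBS_Vehicle 2 or 3 or any 1 PBS_NVP-BHG712 library. The interaction gave 2 without PBS_NVP-BHG712 3. In whole lung Bleo_NVP-BHG712 against Bleo_Vehicle gave 0 to 1, with Ltbp1 called without PBS_NVP-BHG712 2 or PBS_Vehicle 1, and the other comparisons stayed at 0. For these fits too the share of all tests called is not given, so the counts do not single out the members.

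Of the called changes, Tgfb2 in alveolar type II nuclei passed in 16 of 20 alternatives (adjusted p 6.7e-07 to 0.146), Tgfbr3 and Ltbp1 in alveolar type I nuclei in 15 (0.00105 to 0.0890) and 14 (0.00104 to 0.127), Tgfbr3 and Tgfbr2 in club nuclei in 10 (1.6e-06 to 0.303) and 2 (0.0296 to 0.197), and Tgfbr2 in fibroblasts in 6 (0.0142 to 0.189). Whole-lung sums use no clusters, so batch correction gave no value there, and the interaction has no form with only the groups compared.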

Other observations

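Unnamed nuclei also held the members. Cluster 14, of 427 nuclei, was led by Kctd16, Hhip, Pappa2, Lgr5 and Aspn, and it had markers of peribronchial fibroblasts, smooth muscle and pericytes without passing the rule for a name. Its mean Tgfbr3 level was 1439 ± 624 CPM (SD, n = 10), above that of every other cluster, although it exceeded the next, a fibroblast-like cluster at 1107 ± 371 CPM (n = 12), in only 6 of 10 libraries. By group the mean was 1831 ± 526 CPM in PBS_Vehicle (n = 3) and 831 ± 359 CPM in Bleo_Vehicle (n = 3), on 1672 UMIs in all, and this was not tested.

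Cluster 26, of 761 shallow nuclei led by Car3, Grik1 and Pinlyp, had the highest mean Ltbp3 level of all clusters, at 358 ± 352 CPM (SD, n = 7) on 221 UMIs. The 3 Bleo_Vehicle libraries averaged 77.4 ± 16.4 CPM, and the spread of the 7 libraries was as large as their mean.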
